A study of Mus musculus with 4 samples.

Results

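The 10 genes described here, *Pparg*, *Cebpa*, *Cebpb*, *Cebpd*, *Zfp423*, *Ebf1*, *Ebf2*, *Ebf3*, *Prdm16* and *Fabp4*, encode regulators and a marker of fat cell formation. They were chosen by name and function, as 10 of the 23284 genes counted in the series. Osr1 is a zinc finger transcription factor of limb connective tissue, and Osr1+ limb cells are a developmental source of fibro-adipogenic progenitors, the muscle interstitial cells that can form fibroblasts or adipocytes. RNA was sequenced from limb cells of E13.5 mouse embryos on the C57BL/6J background, sorted alive by FACS for GFP. The GFP comes from the *Osr1* GCE allele, a knock-in of eGFP-IRES-CreERt2. The controls were 2 heterozygous embryos (*Osr1* GCE/+) and the mutants were 2 homozygous embryos (*Osr1* GCE/GCE), so that every sample carried at least 1 GCE allele and no wild-type sample was part of the comparison. The sort was for GFP alone, and each sample was 1 embryo. The comparison asks how the adipogenic regulators are expressed in these progenitors with and without intact *Osr1*.

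Fat cells form through a relay of transcription factors. C/EBPβ and C/EBPδ act early and switch on PPARγ and C/EBPα, which sustain each other and turn on genes of the mature adipocyte such as *Fabp4*. The zinc finger protein Zfp423 commits mesenchymal cells to the preadipocyte state and raises *Pparg*, EBF factors act with this network and upstream of it, and Prdm16 together with Ebf2 directs cells to the brown fat program. Several of these factors also work outside fat, for instance EBFs in mesenchyme and C/EBPβ and PPARγ in macrophages.

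The promoters of *Pparg* and *Prdm16* are shown because these were the members with the largest differences between the genotypes. *Pparg* has 3 annotated starts in the RefSeq table, and counts per gene do not tell their transcripts apart. The start farthest into the gene gives the adipocyte-restricted form PPARγ2. RefSeq windows of 250 bases before the start (GRCm38.p6) were found for 7 of the 10 members, 11 windows in all, and none was found for *Cebpd*, *Ebf2* and *Fabp4*. Capitals mark matches to TATAAA or CCAAT, on either strand.
Pparg start 1, chr6:115360894-115361143, plus strand: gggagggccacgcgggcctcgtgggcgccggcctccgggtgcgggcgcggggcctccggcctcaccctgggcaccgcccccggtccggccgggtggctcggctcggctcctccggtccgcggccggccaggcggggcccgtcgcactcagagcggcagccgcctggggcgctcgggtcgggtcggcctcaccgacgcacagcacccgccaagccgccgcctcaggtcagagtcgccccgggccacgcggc
Pparg start 2, chr6:115362099-115362348, plus strand: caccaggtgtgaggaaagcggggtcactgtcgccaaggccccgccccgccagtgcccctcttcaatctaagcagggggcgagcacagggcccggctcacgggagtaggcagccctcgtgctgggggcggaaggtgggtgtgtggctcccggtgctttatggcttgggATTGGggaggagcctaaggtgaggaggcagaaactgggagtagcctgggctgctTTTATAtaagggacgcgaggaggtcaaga
Pparg start 3, chr6:115421816-115422065, plus strand: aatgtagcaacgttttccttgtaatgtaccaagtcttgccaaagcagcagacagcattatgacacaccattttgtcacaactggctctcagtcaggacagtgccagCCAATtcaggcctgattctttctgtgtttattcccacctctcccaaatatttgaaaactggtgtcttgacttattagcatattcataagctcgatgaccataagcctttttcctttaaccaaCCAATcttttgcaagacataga
Prdm16, chr4:154636874-154637123, minus strand: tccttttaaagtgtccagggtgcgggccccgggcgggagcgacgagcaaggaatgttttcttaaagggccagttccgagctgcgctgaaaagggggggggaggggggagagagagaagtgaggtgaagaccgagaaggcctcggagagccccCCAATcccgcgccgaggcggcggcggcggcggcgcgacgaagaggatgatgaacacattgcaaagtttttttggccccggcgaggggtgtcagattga

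The first window of *Pparg* was rich in G and C (82.4%) and held neither motif, whereas the third had 40.8% G and C and a pair of CCAAT matches. At the second start TATAAA matched on the minus strand with its first base 29 bases before the start. *Cebpa*, whose window is not printed, held TATAAA 30 bases before its start, the spacing typical of a TATA box. TATAAA occurs in 12.4% and CCAAT in 33.8% of all 32851 windows of this length, so that such matches are common. No window of a member held the C/EBP palindrome TTGCGCAA (in 0.164% of all windows), the palindromic EBF consensus (0.779%), the perfect DR1 repeat bound by PPARγ with RXR (0.0335%) or GCTACTGT, a sequence bound by odd-skipped proteins (0.749%). Both strands were searched, and the absence of these letters says nothing about binding elsewhere.

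Total counts were between 52121596 and 61402140 per sample, so that 3 counts, taken as the floor, were 0.0489 to 0.0576 CPM (counts scaled to the size of the library). *Osr1* itself was at 81.9 and 79.1 CPM in the controls against 11.9 and 13.9 CPM in the mutants, a log2 fold change of -2.64 with an adjusted p of 5.9e-05 (quasi-likelihood test of edgeR, Benjamini-Hochberg adjustment). *Xist*, the RNA that silences an X chromosome in females, reached 1142 CPM in GCE/GCE replicate 1 but no more than 2.63 CPM elsewhere. Thus 1 embryo differed in sex from the rest, and sex was not balanced between the genotypes. The part of sex in their differences was not tested. Markers of several cell types were present, and edgeR called genes among those of macrophages and chondrocytes. Of 18 macrophage markers, 13 were called lower in GCE/GCE cells, and their summed level was 403 and 407 CPM in GCE/+ against 251 and 177 CPM in GCE/GCE cells. None of the 18 was at 0 in all samples. Of 16 chondrocyte markers 7 were called higher, with sums of 1060 and 1557 against 2207 and 2384 CPM. The paper reads the rise of cartilage genes as a shift within *Osr1*-deficient cells. It also reports RT-qPCR of *Sox5* and *Sox9* and a higher chondrogenic capacity of these cells in culture. No endothelial marker of 14 was called by edgeR (8 at an unadjusted p under 0.05, 1 by DESeq2), with sums of 159 and 131 against 132 and 114 CPM. None of the tested markers of muscle (11, of which 3 at an unadjusted p under 0.05) or red cells (9, of which 0) was called by either tool. Of 13 markers of limb mesenchyme edgeR called none (2 at an unadjusted p under 0.05) and DESeq2 called 3, *Tcf7l2* among them. These 13 summed to at least 17448 CPM in every sample.

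All 10 members had enough counts to be tested. Levels of different genes were compared as FPKM, that is CPM divided by the length of the longest transcript in kilobases. In GCE/+ cells *Ebf3* was the highest with a mean of 105.9 FPKM, at the 96.8th percentile of tested genes, followed by *Ebf2* with 38.5, *Zfp423* with 19.9 and *Ebf1* with 12.7 FPKM. Then came *Cebpb* with 8.86, *Cebpa* with 7.64, *Prdm16* with 3.37, *Cebpd* with 2.19, *Pparg* with 2.11 and *Fabp4* with 0.678 FPKM. The median of all tested genes was 6.91 FPKM. The 3 EBF genes and *Zfp423* thus stood above the other members, and *Fabp4* was the lowest. Neighbours in this order did not overlap between samples, apart from *Cebpb* and *Cebpa* and from *Cebpd* and *Pparg*. The order of means was the same in GCE/GCE cells, where *Cebpb* and *Cebpa* again overlapped, as did *Pparg* and *Fabp4*. With the shortest transcript *Ebf1* ranked 3 and *Zfp423* ranked 4, *Cebpa* and *Cebpb* also changed places, and in GCE/+ cells *Pparg* ranked 8 and *Cebpd* ranked 9.

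**Figure D1:**
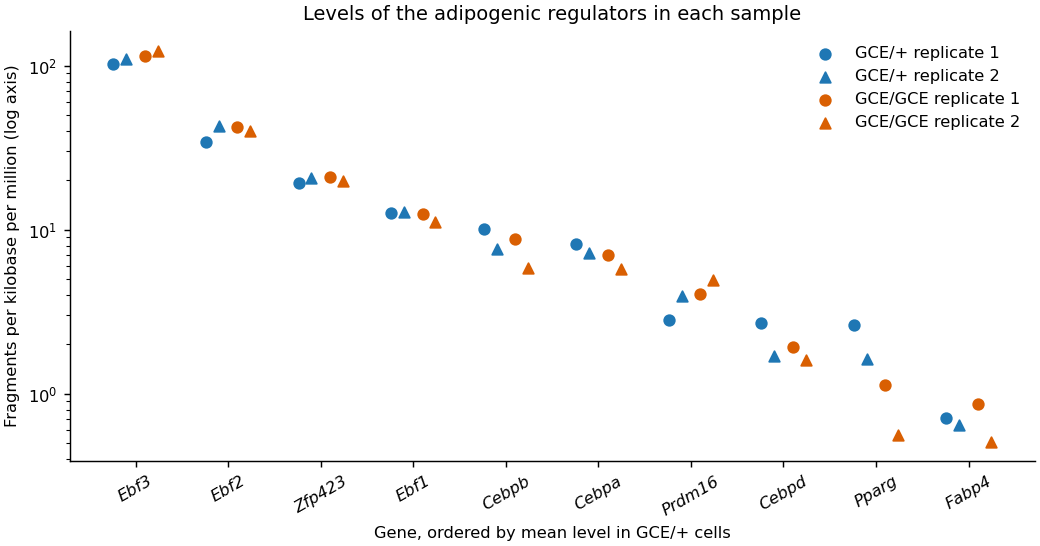
Levels of the 10 genes in each of the 4 samples, in FPKM (CPM per kilobase of the longest transcript) on a log axis; each point is 1 embryo, blue for GCE/+ and orange for GCE/GCE. *Ebf3* lies above 100 in every sample and *Fabp4* below 1, and *Pparg* shows the widest gap between its blue and orange points.

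No member reached the threshold, an adjusted p under 0.1, in edgeR's quasi-likelihood test, where 1.82% of the 15645 genes tested did (0.895% higher and 0.927% lower in GCE/GCE). At an unadjusted p under 0.05 there were 2 members, *Pparg* and *Prdm16*, against 10.5% of all genes. DESeq2 called 1 of the 10, *Pparg*, against 3.45% of the genes it tested, 1.69% being lower in GCE/GCE. Both GCE/GCE values lay below both GCE/+ values for 3 members, *Pparg*, *Cebpa* and *Ebf1*, and above them for 2, *Ebf3* and *Prdm16*. Such non-overlap was found in 19.1% of all genes in the lower and 19.2% in the higher direction. The median log2 fold change of the members was -0.05, beside 0.00 over all tested genes.

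*Pparg* (GRCm38 chr6:115360951-115490399, plus strand, 8 exons in its longest transcript) encodes the nuclear receptor without which adipocytes do not form. It had 337 and 180 counts in GCE/+ replicates 1 and 2, and 139 and 73 counts in GCE/GCE replicates 1 and 2. These were 5.53 and 3.44 against 2.39 and 1.19 CPM, a mean of 4.49 ± 1.48 against 1.79 ± 0.85 (SD, n = 2). The genotypes did not overlap, and the embryos of 1 genotype also stood apart: replicate 2 had 62.2% of the level of replicate 1 in GCE/+ and 49.8% in GCE/GCE cells. The log2 fold change was -1.33 (SE 0.34, 95% interval -2.11 to -0.56), a 2.52-fold lower level that ranked 124 of 15645 by size, with an adjusted p of 0.137 in edgeR's test. DESeq2 gave the same log2 fold change of -1.33 with an adjusted p of 0.011. With the replicate number as a block, edgeR gave an adjusted p of 0.039. The call thus depended on the test and on the model. The size of the difference also depended on single embryos. Without GCE/+ replicate 1 or 2 the log2 fold change was -0.95 or -1.63. Without GCE/GCE replicate 1 or 2 it was -1.92 or -0.91. Each of these edgeR fits leaves 1 genotype with a lone sample, assumed to vary like the other group. The direction was lower in all of these fits. The macrophage markers moved the same way (median log2 fold change -0.98), and *Pparg* is also transcribed in macrophages; their part in the difference was not tested. In sorted bulk cells, fewer cells expressing a gene and less RNA per cell cannot be told apart.

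*Cebpa* (chr7:35119293-35121928, plus strand, a single exon) encodes the partner of PPARγ in terminal differentiation. Its level was 21.3 and 18.8 CPM in GCE/+ embryos against 18.4 and 15.0 CPM in GCE/GCE embryos. The groups did not overlap, but by a narrow margin, and the log2 fold change of -0.27 (SE 0.13) had an adjusted p of 0.580 in edgeR's test. The early factors *Cebpb* and *Cebpd* are also single-exon genes. *Cebpb* (chr2:167688915-167690418, plus strand) had 15.2 and 11.5 against 13.2 and 8.82 CPM. Its groups overlapped, with a log2 fold change of -0.28 (SE 0.21) at an adjusted p of 0.778 by edgeR. Without GCE/GCE replicate 1 the log2 fold change was -0.60, and without GCE/GCE replicate 2 it was -0.020. *Cebpd* (chr16:15887286-15891031, plus strand) had 10.1 and 6.35 against 7.25 and 6.04 CPM, where the highest value was that of 1 GCE/+ embryo. The log2 fold change was -0.31 (SE 0.22) at an adjusted p of 0.766 by edgeR and turned to 0.06 without that embryo. On the opposite strand the annotation has *Gm45091* at *Cebpa*, *Tmem189* at *Cebpb* and *Spidr* at *Cebpd*, and since the library kit does not mark strand, reads of such pairs cannot be told apart. The 3 C/EBP genes and *Pparg* thus had negative values, of which none passed the threshold in the reported edgeR fit, which had no block.

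*Zfp423*, the commitment factor (chr8:87661810-87959595, minus strand, 8 exons), was level across the samples with 94.8 and 101 against 103 and 97.3 CPM. The log2 fold change was 0.03 (SE 0.08, 95% interval -0.15 to 0.22) at an adjusted p of 0.966 by edgeR, and its sign turned under several alternatives. The interval leaves out changes as large as that estimated for *Pparg*.

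The EBF genes encode helix-loop-helix factors of the mesenchyme. *Ebf1* (chr11:44617317-45008091, plus strand, 16 exons) had 75.3 and 76.7 against 74.5 and 66.5 CPM, and its log2 fold change was -0.11 (SE 0.09) at an adjusted p of 0.814 (edgeR). The GCE/GCE values lay below the others, 1 of them by less than 1 CPM. *Ebf2* (chr14:67233292-67430918, plus strand, 17 exons), a marker of brown preadipocytes, had 178 and 222 against 219.6 and 208 CPM. Here GCE/+ replicate 1 stood below the other samples, and without it the log2 fold change of 0.09 (SE 0.11) at an adjusted p of 0.902 by edgeR became -0.06. *Ebf3* (chr7:137193673-137314445, minus strand, 16 exons), the most abundant member, had 509.95 and 547 against 569 and 615 CPM. Its groups did not overlap and the log2 fold change was 0.16 (SE 0.10) at an adjusted p of 0.677 by edgeR. The 3 EBF genes therefore had small values of both signs, with intervals that all included 0. *Gm10860* and *Gm45278* overlap exons of *Ebf2* and *Ebf3* on the opposite strand.

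*Prdm16* (chr4:154316125-154636873, minus strand, 17 exons) encodes a cofactor that drives the brown fat program and is also expressed in other embryonic tissues. Its values were 24.1 and 33.8 against 35.04 and 42.2 CPM, a mean of 29.0 ± 6.86 against 38.6 ± 5.05 (SD, n = 2). The groups were separated by little, since GCE/+ replicate 2 lay next to GCE/GCE replicate 1. The log2 fold change was 0.41 (SE 0.16, 95% interval 0.04 to 0.79), with an adjusted p of 0.392 in edgeR's test and 0.250 in DESeq2. Leaving out GCE/+ replicate 1 or 2 brought the log2 fold change to 0.18 or 0.68. Leaving out GCE/GCE replicate 1 or 2 brought it to 0.54 or 0.27. Over 15471 genes, log2 fold changes rose with transcript length (Spearman correlation 0.256), and *Prdm16* had the longest transcript of the members (8601 bases). With offsets that take out a trend on length, its log2 fold change was 0.30 (adjusted p = 0.464, edgeR). *B230104I21Rik* overlaps exons of *Prdm16* on the opposite strand. The chondrocyte markers were higher in GCE/GCE cells by a median log2 fold change of 0.89, and their part in the *Prdm16* values was not tested.

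*Fabp4* (chr3:10204088-10208576, minus strand, 4 exons) encodes the fatty acid carrier of mature adipocytes. Its counts were 39 and 30 against 45 and 28, that is 0.64 and 0.574 against 0.775 and 0.457 CPM. The counting interval of the lowest sample (0.303 to 0.659 CPM, exact binomial, 95%, counting error only, before TMM scaling) overlapped those of the other samples. The log2 fold change was 0.01 (SE 0.34, 95% interval -0.78 to 0.80) at an adjusted p of 0.997 by edgeR. The interval is wide and includes changes in either direction.

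The embryos of a genotype differed from each other in several members. *Pparg*, *Cebpa*, *Cebpb*, *Cebpd* and *Fabp4* were lower in the embryo numbered 2 than in that numbered 1 in both genotypes, which is 5 of 10 members beside 24.3% of all genes, and was noticed after the values were seen. The labels do not say that a shared number marks a pair. *Ebf3* and *Prdm16* were higher in that embryo in both genotypes. In every member but *Pparg* and *Ebf3*, the log2 distance between the embryos of at least 1 genotype exceeded that between the genotypes.

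**Figure D2:**
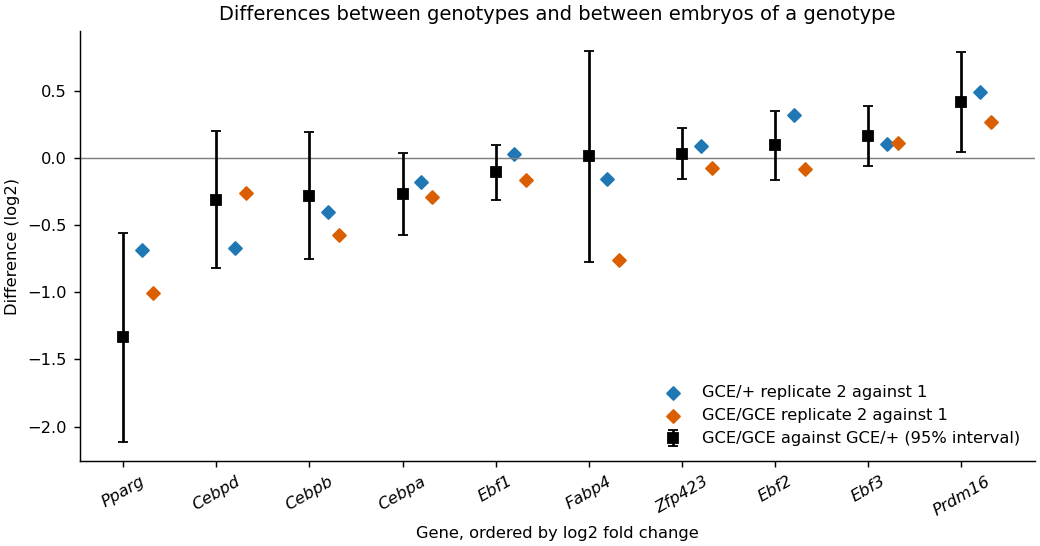
Log2 differences of the 10 genes, ordered by fold change; black squares give GCE/GCE against GCE/+ with the 95% interval of edgeR's fit, and diamonds give replicate 2 against replicate 1 within GCE/+ (blue) and within GCE/GCE (orange). *Pparg* at -1.33 and *Prdm16* at 0.41 are the genes whose intervals leave out 0, and their diamonds point the same way as their squares.

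**Figure D3:**
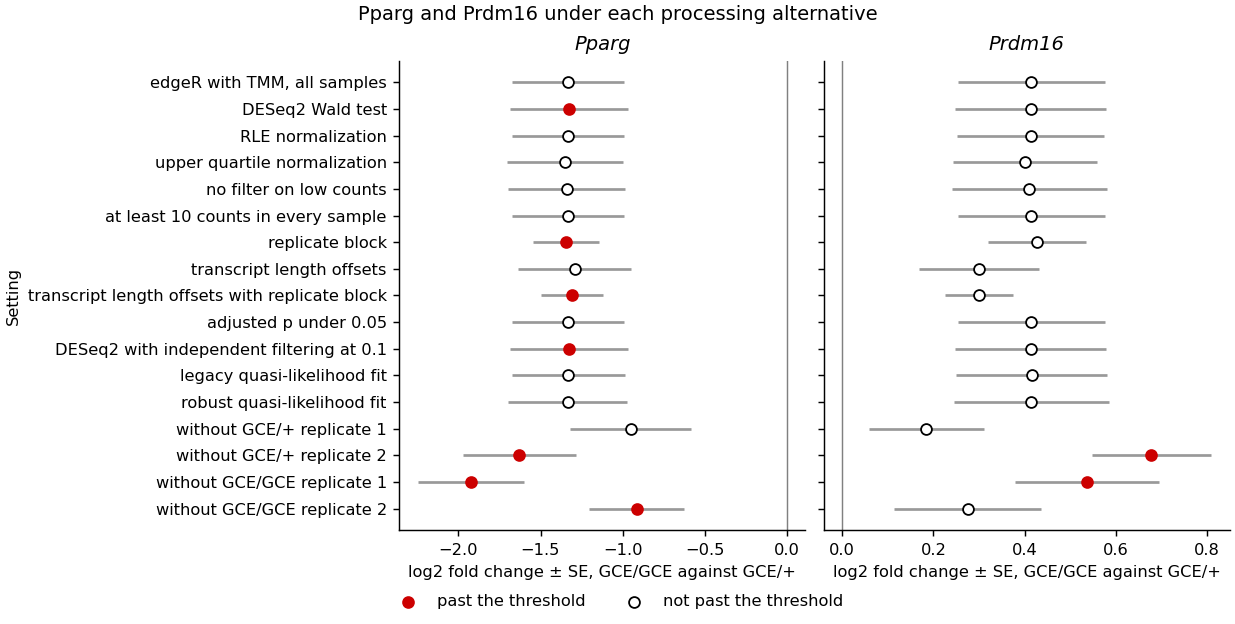
Log2 fold change ± SE of *Pparg* (left) and *Prdm16* (right) in the fit reported and in 16 alternatives; filled points passed the threshold of that setting. *Pparg* stays below 0 from -1.92 to -0.91 and *Prdm16* above 0 from 0.18 to 0.68, and most points in both panels are open.

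Further genes of the adipogenic network were taken from lists of its activators, inhibitors and products. Of 19 activators and cofactors 1 rose, *Ppargc1a*, the PPARγ coactivator PGC-1α of mitochondrial and brown fat genes. Its level went from 9.67 and 10.3 CPM to 15.0 and 16.5 CPM, with a log2 fold change of 0.66 (SE 0.12) and an adjusted p of 0.063 (edgeR). The call was lost without GCE/+ replicate 1 (log2 fold change 0.60) or without GCE/GCE replicate 2 (0.59). It was also lost without the filter on low counts (adjusted p = 0.104, edgeR). Its paralog *Ppargc1b* had 3.09 and 3.23 against 4.63 and 3.71 CPM (log2 fold change 0.40, adjusted p = 0.526, edgeR). The most abundant activators, *Klf6*, *Klf4* and *Nfib*, had log2 fold changes of -0.08, -0.10 and -0.04, and the median of the list was 0.01.

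Of 14 inhibitors none passed the threshold in edgeR, where 3 had an unadjusted p under 0.05. DESeq2 called 2, *Dlk1* and *Tcf7l2*. *Tcf7l2* (Tcf4 in the paper, a marker of muscle connective tissue) had 147 and 138 against 111 and 120 CPM, without overlap. Its log2 fold change was -0.30 (adjusted p = 0.174 in edgeR and 0.099 in DESeq2). This gene is also on the lists of fibro-adipogenic and limb mesenchyme markers, so its DESeq2 call counts in each. The preadipocyte protein gene *Dlk1* had 1855 and 1541 against 1326 and 1100.02 CPM, without overlap. Its log2 fold change was -0.49 (adjusted p = 0.217 in edgeR and 0.0065 in DESeq2), and ranged from -0.63 to -0.35 with 1 embryo left out. *Gata2*, which holds back *Pparg* in preadipocytes, had 15.1 and 15.9 against 9.96 and 13.51 CPM (log2 fold change -0.40, adjusted p = 0.398, edgeR). With 1 embryo left out its log2 fold change ranged from -0.64 to -0.21. *Id2* and *Zfp521*, abundant members of the list, had log2 fold changes of -0.09 and 0.13.

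Genes of the mature adipocyte were scarce or shared with other cells. Of 25 such lipid and hormone genes 19 were tested, *Lep* and *Cfd* had no counts in any sample, and 9 of the 25 were below 1 CPM everywhere. *Adipoq*, the adiponectin gene, had at most 0.392 CPM (log2 fold change 1.39, adjusted p = 0.472, edgeR). The single call was *Cd36*, a fatty acid receptor and PPARγ target of adipocytes, macrophages and endothelium. It fell from 24.1 and 25.0 CPM to 15.9 and 10.98 CPM, a log2 fold change of -0.87 (SE 0.17) with an adjusted p of 0.065 (edgeR). The call was lost without GCE/+ replicate 1 and without the filter on low counts (adjusted p = 0.145, edgeR). The endothelial markers had a median log2 fold change of -0.41. The part of macrophages and endothelium in the *Cd36* difference was not tested. The lipid synthesis genes *Scd2*, *Fasn* and *Acaca* were abundant, with log2 fold changes of 0.10, 0.10 and 0.19 and no call. Of 12 brown fat genes 10 were tested and none was called, with 1 at an unadjusted p under 0.05 and none in DESeq2. *Ucp1*, the uncoupling protein of brown fat, had at most 0.213 CPM and was not tested. *Cidea*, the gene of that list at an unadjusted p under 0.05, had at most 0.31 CPM and a log2 fold change of 1.45 (adjusted p = 0.360, edgeR). *Ehmt1*, *Tfam* and *Pank1*, which are broadly expressed, had values of 0.08, 0.02 and 0.12, and *Elovl3* of -0.38.

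Markers of fibro-adipogenic progenitors ranged from abundant to scarce, and 1 of the 15, *Pi16*, was below 1 CPM in every sample. None of the 15 passed the threshold in edgeR (4 at an unadjusted p under 0.05), with a median log2 fold change of -0.12. DESeq2 called 3, *Dcn*, *Lum* and *Tcf7l2*. *Pdgfra*, which defines these cells in adult muscle, had 833 and 977 against 909 and 961 CPM (log2 fold change 0.05). *Ly6a*, the Sca1 gene used to sort them from adult muscle, had 0.64 and 0.708 against 0.982 and 1.05 CPM (0.59, adjusted p = 0.487, edgeR). The matrix proteoglycan genes *Dcn* and *Lum* were lower without overlap. *Dcn* had 517 and 375 against 316 and 242 CPM (-0.68, adjusted p = 0.131 in edgeR and 0.0011 in DESeq2). With 1 embryo left out its log2 fold change ranged from -0.89 to -0.43. *Lum* had 481 and 402 against 346 and 350.3 CPM (-0.34, adjusted p = 0.233 in edgeR and 0.066 in DESeq2), with a range from -0.47 to -0.21 when 1 embryo was left out.

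**Figure D4:**
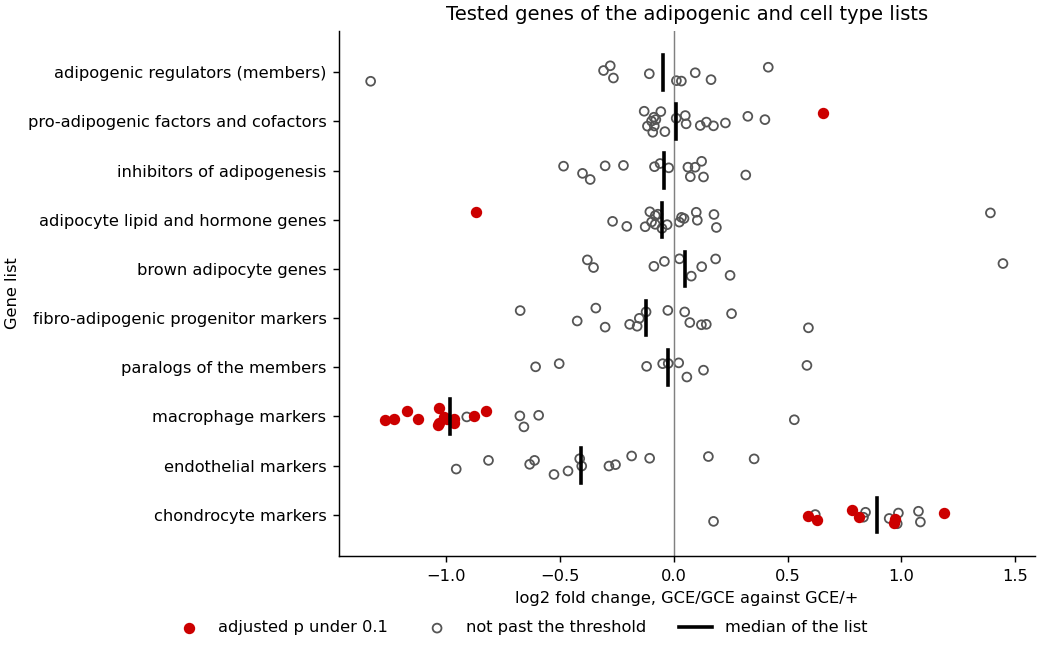
Log2 fold changes, GCE/GCE against GCE/+, of the tested genes in the member list, 6 further adipogenic lists and 3 cell type marker lists; each circle is a gene, filled where its adjusted p in edgeR's test was under 0.1, and bars are medians. Medians of the adipogenic lists lie between -0.12 and 0.05, those of the macrophage, endothelial and chondrocyte markers at -0.98, -0.41 and 0.89.

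Of 10 paralogs of the members 9 were tested, none was called by edgeR and 1 had an unadjusted p under 0.05, *Mecom*, which was also the DESeq2 call. *Mecom*, the paralog of *Prdm16*, had 43.6 and 38.8 against 53.2 and 70.4 CPM, with a log2 fold change of 0.58 (adjusted p = 0.110 in edgeR and 0.0038 in DESeq2). With 1 embryo left out the log2 fold change of *Mecom* ranged from 0.37 to 0.77. The other PPAR genes, *Ppara* and *Ppard*, had log2 fold changes of -0.12 and 0.02, unlike the -1.33 of *Pparg*, though the differences between paralogs were not tested. *Cebpg* had 0.06, *Ebf4* -0.03 and *Zfp521*, the paralog of *Zfp423*, 0.13, and *Cebpe* had at most 2 counts in any sample. Among fatty acid binding proteins *Fabp5* was far more abundant than *Fabp4* in CPM, with 123 and 106 against 107 and 114 CPM (-0.05). *Fabp3* and *Fabp7* had values of -0.50 and -0.61, with adjusted p of 0.538 and 0.655 in edgeR's test. With 1 embryo left out the value of *Fabp7* ranged from -1.16 to -0.20.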

How the data were processed

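RNA of GFP-sorted Osr1+ limb cells was sequenced for 2 GCE/+ and 2 GCE/GCE embryos. The authors aligned paired-end reads with TopHat2 (genome mm9), counted fragments per gene by HTSeq in strict intersection mode, and deposited the raw counts. Groups and replicate numbers came from the sample titles. Genes were filtered with filterByExpr (15645 remained), normalized by TMM and tested, two-sided, with edgeR 4.0.16 (quasi-likelihood, Benjamini-Hochberg adjustment, threshold 0.1) in R 4.3.3. DESeq2 1.42.0 was an alternative, with the study's filtering level of 0.05. That level, in place of 0.1, and the current quasi-likelihood fit of edgeR, in place of its legacy fit, were settled after seeing the data, and the counts under both are given in the closing section. The procedure was tested on simulated data. An exact permutation test of 2 against 2 samples cannot go below p = 0.333 and was not used. Member genes and lists were chosen with earlier results of these data known. Named from the lists are genes past the threshold, the 3 most abundant, the 2 with the largest fold change, all detected paralogs, and *Tcf7l2* for its DESeq2 call. Lengths and loci are from GENCODE (GRCm38), with 98.02% of symbols matched and no conversion from mm9. Sequences are from RefSeq. Figures were drawn with matplotlib 3.10.9.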

Additional observations from a re-analysis of the deposited data

How the results depend on the processing

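Besides the reported fit, 16 alternatives were run. Genes called numbered 285 (140 higher, 145 lower). There were 508 with DESeq2 (260 and 248), 127 without a filter on low counts (62 and 65), 130 at an adjusted p under 0.05 (65 and 65), and 199 to 961 when 1 embryo was left out (113 to 646 and 86 to 457). DESeq2 with filtering at 0.1 gave 502 (255 and 247), the legacy quasi-likelihood fit 279 and the robust fit 301. These last 3 were added after seeing the data. Members called numbered 0, but 1 with either DESeq2 setting, with the replicate block and with length offsets plus block, and 0 to 3 with 1 embryo left out. List genes called numbered 2, but 7 with DESeq2, 6 with its filtering at 0.1, 5 with length offsets plus block, 0 without a filter, 0 at 0.05, and 1 to 9 with 1 embryo left out. Among all genes tested, 3.45% were called with DESeq2 and 3.25% with its filtering at 0.1. The share was 1.85% with the replicate block and 2.33% with length offsets plus block. The counts with 1 embryo left out come from fits with a lone sample in 1 genotype. No conclusion about the members is drawn from those counts. With the replicate number as a block *Pparg* had -1.35 (adjusted p = 0.039, edgeR), and with length offsets as well -1.31 (0.054). Of the list genes named, *Dcn* passed under the block (-0.67, adjusted p = 0.034) and under both (-0.63, 0.027), and *Dlk1* under both (-0.52, 0.048). Deviations of same-numbered samples had a correlation of -0.04 over 9755 genes, so the numbers were not taken as pairing. DESeq2 gave *Pparg* -1.33 at either filtering level (adjusted p = 0.011 and 0.012). With 1 embryo left out, which assumes that a lone sample varies like the other group, log2 fold changes ranged from -1.92 to -0.91 for *Pparg*, -0.60 to -0.020 for *Cebpb*, 0.18 to 0.68 for *Prdm16*, -0.60 to 0.060 for *Cebpd*, -0.016 to 0.077 for *Zfp423*, -0.065 to 0.26 for *Ebf2* and -0.42 to 0.35 for *Fabp4*. Among list genes whose sign turned they ranged from -0.32 to 0.12 for *Klf6*, -0.018 to 0.17 for *Ehmt1*, -0.070 to 0.17 for *Pdgfra*, -0.075 to 0.11 for *Ppard*, -0.11 to 0.24 for *Cebpg*, -0.079 to 0.026 for *Ebf4* and -0.15 to 0.052 for *Fabp5*. Length offsets, without and with the block, turned *Zfp423* to -0.0129 and -0.0131, *Fasn* to -0.0548 and -0.0553, and *Pdgfra* to -0.0407 and -0.0415, and upper quartile normalization turned *Fabp4* to -0.0066. Length offsets take out a trend on transcript length, with which log2 fold changes had a Spearman correlation of 0.256. Where that trend comes from, and the cause of the *Fabp4* shift, were not tested. *Cebpa*, *Ebf1* and *Ebf3* kept direction and side of the threshold in all 16, but with 1 embryo left out their sizes ranged from -0.42 to -0.13, -0.20 to -0.029 and 0.11 to 0.21. *Fabp4* had the fewest counts of the members, 28 to 45 per sample.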
